A study of Mus musculus with 4 samples.

Results

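Mt1, Mt2, Sult1a1, Fam107a, Fkbp5 and Plin4 are 6 transcripts known to respond to glucocorticoid hormones, and Mt1 and Mt2 also to zinc. They were chosen by name with the SmoM2 against wild type result already known, and all 6 had a row among the 5282 genes of the deposited table. RNA came from corpus callosum and cortex, dissected together, of mice at postnatal day 15. The 2 SmoM2 samples were Pdgfra-creER;SmoM2, the 2 wild type (WT) samples are labelled WT, and the mice of both groups were injected with tamoxifen from postnatal day 5 to 7. Smoothened relays the hedgehog signal across the cell membrane, and the SmoM2 mutant does so without ligand. Pdgfra-creER is a recombinase that tamoxifen activates in cells using the Pdgfra promoter, which in brain are oligodendrocyte precursors and also fibroblasts of the coverings and vessels, so that other cells of the tissue do not carry the active allele unless they descend from those. The series text calls the controls littermates; whether they carried the recombinase is not stated there. The labels do not say whether the 2 samples of a group are separate animals, and the spread between them may be technical.

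Metallothioneins are small cysteine-rich proteins that bind zinc and copper. In brain Mt1 and Mt2 are made mostly by astrocytes, and their genes answer to the zinc sensor MTF-1 through metal response elements and to glucocorticoids, whereas Mt3 is a brain form that metals induce little. Corticosterone, the glucocorticoid of mice, binds the receptor encoded by Nr3c1, which then enters the nucleus and acts at glucocorticoid response elements. Fkbp5 encodes a co-chaperone that lowers the receptor's affinity for hormone and closes a feedback loop. Fam107a encodes an actin-binding protein induced by stress, Sult1a1 a sulfotransferase for phenols, and Plin4 a coat protein of lipid droplets. No hormone or zinc measurement is among the values used here, so the name of the group rests on earlier knowledge of these genes and not on these samples.

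All 6 genes were lower in SmoM2, and for each of them both SmoM2 samples lay below both WT samples. Mt2 stood at 23.8% of its WT mean, Sult1a1 at 38.7%, Mt1 at 43.8%, Fam107a at 44.9%, Fkbp5 at 82.4% and Plin4, at a very low level, at 11.4%. By the authors' deposited table, 5 of the 6 genes pass an adjusted p of at most 0.05, the threshold at which "rose" or "fell" is used below, and Fkbp5 does not, at 0.129. The adjusted p given by the authors' deposited table was 1.67e-60 for Mt2, 1.53e-30 for Fam107a, 1.97e-27 for Mt1, 2.21e-08 for Sult1a1 and 0.0347 for Plin4. By that rule 37.3% of all listed genes were called, 16% as lower and 21.3% as higher. The table holds only genes with an unadjusted p under 0.05, and groups did not overlap in 84.7% of them, with SmoM2 lower in 35.2%. Since the 6 were picked from this same comparison, these counts and the values below are a description and test nothing. With 2 samples against 2, the smallest two-sided p of an exact permutation test would be 0.333.

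The sequences before the start of the genes are shown because Mt1 and Mt2 are textbook targets of metal response elements and the others are known to respond to glucocorticoids. They are RefSeq windows of the 250 bases before the annotated start (GRCm38.p6), matched by symbol for all 6 genes. Capitals mark the metal response element core, searched as TGCACNC or TGCGCNC on both strands, in the stretches printed for Mt1 (chr8:94178839-94179078, plus strand) and Mt2 (chr8:94172368-94172607, plus strand), read 5′ to 3′ and ending 11 bases before the start.
Mt1: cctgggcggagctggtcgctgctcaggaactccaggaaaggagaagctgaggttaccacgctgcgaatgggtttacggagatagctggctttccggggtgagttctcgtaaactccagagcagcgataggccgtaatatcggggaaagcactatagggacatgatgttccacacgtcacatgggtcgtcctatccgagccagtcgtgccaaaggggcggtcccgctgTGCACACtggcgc
Mt2: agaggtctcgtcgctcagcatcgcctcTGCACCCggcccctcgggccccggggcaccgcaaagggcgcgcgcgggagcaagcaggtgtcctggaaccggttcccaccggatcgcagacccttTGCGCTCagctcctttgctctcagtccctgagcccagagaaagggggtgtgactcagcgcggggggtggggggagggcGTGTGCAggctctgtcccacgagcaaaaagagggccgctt
Mt2 held 3 matches, Mt1 held 1, and Fam107a, described next, also held 1, which began 22 bases before its start on the minus strand. At least 3 matches occurred in 1.26% of the 32851 windows of that length, which include several starts for some genes, and at least 1 occurred in 21.4%. The Mt2 matches began 223, 128 and 50 bases before the start, the last of them on the minus strand, and the Mt1 match began 23 bases before it. Mt3, the neighbour of Mt2 in the genome, held no match in its window, and Mt4, a further metallothionein gene beside them, held 1. GENCODE M21 lists further protein-coding starts for Mt1 at 94179211 and 94179241 on chromosome 8 and for Mt2 at 94172860. The bases before those starts lie partly inside the longer transcripts and were searched only where they fall in the windows above. The match counts and distances therefore hold only for the start used and do not describe all metal response elements of these genes. The Mt2 stretch also overlaps an exon of the antisense gene Gm45774.

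Capitals in the next stretches mark the half-site of the glucocorticoid receptor element, searched as AGAACA on both strands. The Sult1a1 stretches lie at chr7:126676617-126676650 and chr7:126676439-126676472, and the Fam107a stretch at chr14:8309864-8309957, all on the minus strand and read 5′ to 3′.
Sult1a1, first site: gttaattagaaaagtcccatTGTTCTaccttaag
Sult1a1, second site: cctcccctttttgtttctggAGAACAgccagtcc
Fam107a: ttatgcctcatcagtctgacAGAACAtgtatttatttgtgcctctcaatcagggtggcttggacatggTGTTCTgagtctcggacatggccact
Sult1a1 and Fam107a each held 2 half-sites, a number that 1.81% of windows reached or passed, and at least 1 was present in 16.1%. Those of Fam107a began 158 and 110 bases before the start at 8309779, 1 of the 3 windows RefSeq gives for this gene. The window of a start 2 bases away holds the same matches, and the window of the third start, chr14:8317608-8317857, held neither a half-site nor a metal core. The windows of Mt1, Mt2, Fkbp5 and Plin4 held none. The Fkbp5 window lies before the start at 28486149 on chromosome 17. The bases before its other protein-coding starts in GENCODE M21, among them 28511357 and 28517524, were searched only where they fall in that window. The full palindrome, the half-site followed after 3 bases by its reverse complement, was in none of the 6 genes' windows and in 3 of all 32851, a share of 0.00913%. These matches describe letters near the annotated start and say nothing of binding, and elements further away were outside the windows.

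**Figure D1:**
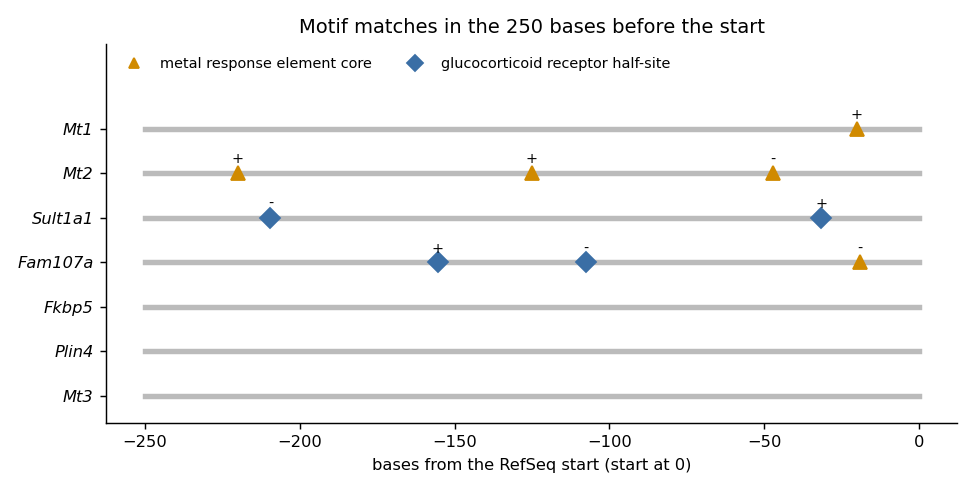
Matches to the metal response element core (triangles) and the glucocorticoid receptor half-site (diamonds) in the 250 bases before the RefSeq start, with distance from the start in bases on the x axis and the strand of the match above each symbol, for the 6 genes and Mt3; for Fam107a the window that begins at 8309779 is drawn. Mt2 shows 3 metal cores, Mt1 shows 1, and Sult1a1 and Fam107a show 2 half-sites each, Fam107a with 1 metal core as well, while Fkbp5, Plin4 and Mt3 show no match.

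Mt2 (ENSMUSG00000031762), the metallothionein that differed most, had levels of 92.12 and 126.08 in SmoM2 and of 496.40 and 419.92 in WT. The level is an expression value per gene and sample with 2 decimals; RSEM is named in the submitters' processing notes, but whether the level is TPM or FPKM is not stated. Its mean was 109.1 ± 24.0 (SD, n = 2) in SmoM2 and 458 ± 54.1 (SD, n = 2) in WT, 4.20 times as high in WT. The log2 difference, SmoM2 minus WT on log2(level + 1), was -2.07 ± 0.17 (SE, limma), and the log2 fold change in the authors' deposited table was -2.15. The gap between the nearest samples of the 2 groups, 126.08 and 419.92, exceeded the spread within either group. In GRCm38 Mt2 lies on chromosome 8 from 94172664 to 94173568, and 749 of its bases are shared with Gm45774 on the other strand; the sources used here do not state whether reads were counted by strand, and Gm45774 has no row.

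Mt1 (ENSMUSG00000031765), whose protein binds the same metals, had levels of 239.14 and 313.34 in SmoM2 and of 672.40 and 590.24 in WT. Both WT samples lay well above both SmoM2 samples, with means of 276 ± 52.5 and 631 ± 58.1 (SD, n = 2 each) and a log2 difference of -1.20 ± 0.15 (SE, limma). Mt1 is annotated on chromosome 8 from 94179082 to 94180327, 5.51 kb beyond the end of Mt2 on the same strand. No other annotated gene shared 5% or more of the 31-base words of the Mt1 or Mt2 transcripts. Summed, Mt1 and Mt2 came to 331 and 439 in SmoM2 and to 1169 and 1010 in WT.

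The 2 genes did not differ by the same factor, since the ratio of Mt1 to Mt2 within a sample was 2.60 and 2.49 in SmoM2 and 1.35 and 1.41 in WT. Such a ratio does not depend on the scaling of a library, and the 2 samples of a group lay close together while the groups lay apart. Mt3, 18.5 kb before Mt2 in the same cluster, went the other way. It had levels of 619.89 and 610.25 in SmoM2 and of 567.74 and 456.14 in WT, and it did not pass, with 0.487 as its adjusted p by the authors' deposited table. Its log2 difference of 0.27 ± 0.12 (SE, limma) ranged from 0.12 without WT replicate 2 to 0.43 without WT replicate 1, so its size rests on which WT library is used. Under 2 other scalings it was 0.17 ± 0.14 (equal medians) and 0.13 ± 0.10 (quantile normalization) (SE, limma). Both were set on the listed genes alone, which were kept for an unadjusted p under 0.05, so they cannot check the scaling of whole libraries. The median log2 difference of all genes fitted was 0.25, and 0.16 and 0.13 under those scalings, so Mt3 lay near the middle of the table and Mt1 and Mt2 far below it. Mt3 stood at 0.844 and 0.773 times the level of Mt1 in WT and at 2.59 and 1.95 times in SmoM2, on a scale taken to be per length. Of the 3, Mt1 had the highest level in both WT samples and Mt3 in both SmoM2 samples. Mt4, a metallothionein of squamous epithelia, had no row.

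**Figure D2:**
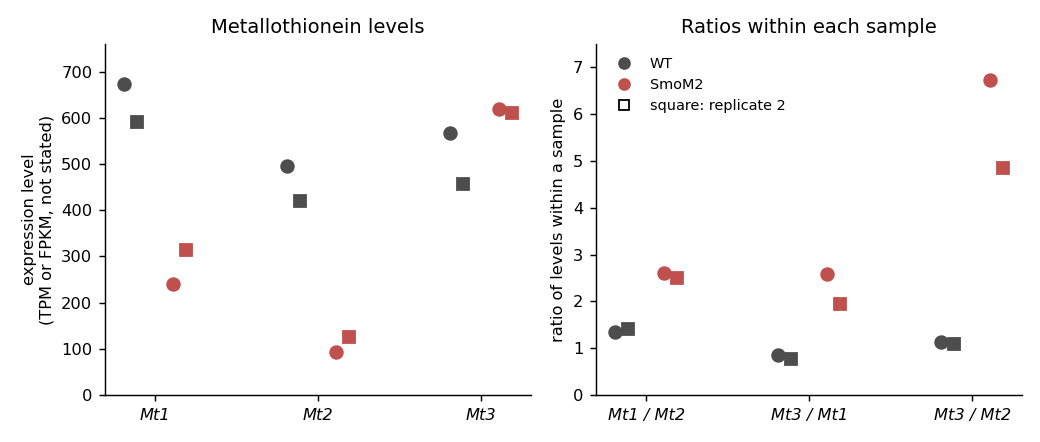
Levels of Mt1, Mt2 and Mt3 in each sample (left, linear axis from 0) and the ratios between them within each sample (right), with WT in grey, SmoM2 in red and replicate 2 as squares. The Mt1 to Mt2 ratio lies at 1.35 and 1.41 in WT and at 2.60 and 2.49 in SmoM2, and the Mt3 levels of the groups lie far closer than those of Mt2.

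Fam107a (ENSMUSG00000021750), the stress-induced actin regulator, had levels of 82.73 and 90.93 in SmoM2 and of 188.00 and 198.59 in WT. Means were 86.8 ± 5.80 and 193.3 ± 7.49 (SD, n = 2 each), with a log2 difference of -1.15 ± 0.09 (SE, limma). The samples of each group differed by far less than the groups. Fam107a is annotated on chromosome 14 from 8296274 to 8318023, minus strand, and no other annotated gene overlaps it.

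Sult1a1 (ENSMUSG00000030711), the phenol sulfotransferase, had levels of 6.28 and 7.65 in SmoM2 and of 17.41 and 18.59 in WT. Its means were 6.97 ± 0.969 and 18.0 ± 0.834 (SD, n = 2 each), and the log2 difference was -1.26 ± 0.15 (SE, limma), against -1.43 in the authors' deposited table. The lower WT sample lay far above the higher SmoM2 sample. Sult1a1 lies on chromosome 7 from 126672865 to 126676432, minus strand, shares 61 bases with Sgf29 on the other strand, and shares 9.15% of its transcripts' 31-base words with the annotated gene Gm6939.

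Fkbp5 (ENSMUSG00000024222), the co-chaperone of the receptor and a usual readout of glucocorticoid action, differed least. It had levels of 18.23 and 18.81 in SmoM2 and of 23.18 and 21.75 in WT, with means of 18.5 ± 0.410 and 22.5 ± 1.01 (SD, n = 2 each). The log2 difference was -0.27 ± 0.11 (SE, limma), against -0.32 in the authors' deposited table. The groups did not overlap, but the gene is not called. It is annotated on chromosome 17 from 28399094 to 28517527, minus strand, where an antisense gene covers 9958 of its bases.

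Plin4 (ENSMUSG00000002831), the lipid droplet coat gene, was close to the lower end of what the table can show. It had levels of 0.03 and 0.01 in SmoM2 and of 0.22 and 0.13 in WT, in steps of 0.01. Rounding is then a large share of the value. The authors' deposited table gives it a log2 fold change of -3.08 with 0.0347 as adjusted p, and on log2(level + 1) its difference was -0.20 ± 0.16 (SE, limma, no filter on low levels). Both WT samples lay above both SmoM2 samples. Plin4 lies on chromosome 17 from 56100591 to 56109803, minus strand. Plin2, the perilipin most tissues use, rose: it had levels of 8.70 and 9.81 in SmoM2 and of 4.65 and 5.64 in WT. Plin1, Plin3 and Plin5 had no row. Of the 15 lipid droplet genes other than Plin4, 4 had a row, 3 were higher and 1 lower, and the authors' deposited table gives them a median of 0.609 (log2 fold change).

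**Figure D3:**
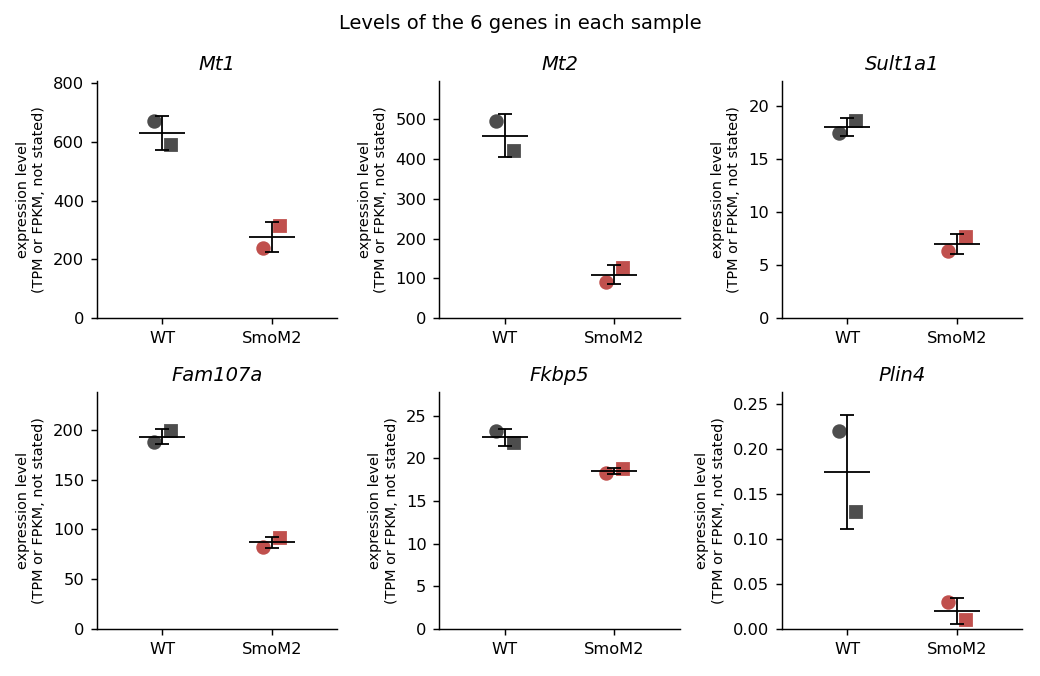
Expression level of each of the 6 genes in the 4 samples, with circles for replicate 1, squares for replicate 2, horizontal bars for group means and error bars for 1 SD; each axis starts at 0. In all 6 panels both SmoM2 points lie below both WT points, with the smallest relative gap for Fkbp5 (18.81 against 21.75) and values near 0 for Plin4.

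Leaving out any 1 library kept each difference (limma) within 1.5 times of its value for the 5 genes other than Plin4. The low level of Plin4 kept it out of that fit. Since both SmoM2 samples lay below both WT samples, the sign could not change, and only the sizes are of use here. The ranges were -2.30 to -1.85 for Mt2, -1.39 to -1.01 for Mt1, -1.38 to -1.13 for Sult1a1, -1.21 to -1.08 for Fam107a and -0.31 to -0.22 for Fkbp5. For Mt1, Mt2, Sult1a1 and Fam107a the smallest difference came without SmoM2 replicate 1, which had the lower SmoM2 level of each of the 4.

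Genes of the receptor and of steroid handling moved in both directions. Of 20 in the list, 9 had a row, 6 lower and 3 higher, with 3 that fell and 2 that rose, where 16% of all listed genes fell and 21.3% rose. The 9 had a median log2 fold change of -0.219 by the authors' deposited table, beside 0.235 over all listed genes. Nr3c1, the glucocorticoid receptor, had levels of 18.91 and 19.86 in SmoM2 and of 22.21 and 22.13 in WT and fell, with a log2 difference of -0.19 ± 0.11 (SE, limma) against -0.36 in the authors' deposited table. Nr3c2, the mineralocorticoid receptor that also binds corticosterone, fell too, at 10.82 and 13.82 against 14.53 and 15.73; its log2 difference of -0.28 became -0.12 when SmoM2 replicate 1 was left out and -0.45 when replicate 2 was (limma). Hsd11b1, the enzyme that regenerates active glucocorticoid inside cells, fell from 49.33 and 49.84 in WT to 28.93 and 37.03 in SmoM2. The values of both SmoM2 samples lay below WT, and they differed from each other more than the WT samples did. Crhr1, a receptor for corticotropin-releasing hormone, rose, at 28.83 and 29.00 in SmoM2 and 19.67 and 22.06 in WT. Hsp90aa1, the chaperone of the unliganded receptor, overlapped between groups and was not called.

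Among other transcripts known to rise with glucocorticoids, those with a row were mostly lower. Of the 32 in the list beyond the 6, 17 had a row. Of the 17, 13 were lower and 4 higher, with 10 that fell and 1 that rose, where 16% of all listed genes fell and 21.3% rose. By the authors' deposited table the log2 fold changes of the 17 had a median of -0.462, with a range from -1.03 to 0.833, beside a median of 0.235 and a share of 46.8% lower over all listed genes. The median of their log2 differences on the levels was smaller, at -0.26 (limma). The list was written with earlier results of these samples in view, so its direction is not independent of them. The 15 without a row, among them Per1, Pdk4, Cdkn1a, Ddit4, Errfi1 and Lcn2, were not analysed here. Since a row needs an unadjusted p under 0.05, they cannot be told from unchanged genes, and the direction of the whole list is unknown.

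Tsc22d3, which encodes the glucocorticoid-induced leucine zipper protein, had levels of 55.01 and 60.07 in SmoM2 and of 76.80 and 71.31 in WT and fell. Klf9, a receptor-induced zinc finger factor, fell from 101.26 and 118.96 to 84.08 and 76.98, and Zbtb16 from 7.22 and 7.31 to 5.95 and 4.74; the Zbtb16 difference of -0.39 went to -0.25 without SmoM2 replicate 2 (limma). In each of these 3 the groups did not overlap, with a gap smaller than that of Mt1. Sdc4, a syndecan, fell from 46.72 and 36.05 in WT to 26.24 and 27.03, and Hif3a, a hypoxia factor that glucocorticoids induce, from 1.24 and 1.49 to 0.72 and 0.77. Rasd1, a dexamethasone-induced Ras protein, had levels of 7.58 and 10.60 in SmoM2 and of 16.35 and 12.07 in WT and fell. Its difference of -0.59 shrank to -0.38 when SmoM2 replicate 1 was left out and to -0.39 when WT replicate 1 was (limma). Gjb6 is called lower, but its levels overlapped, at 59.05 and 37.78 in SmoM2 and 61.77 and 49.42 in WT, and its difference changed sign without SmoM2 replicate 2, from -0.22 to 0.09 (limma).

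Some of the usual hormone targets were not called. Sgk1, a kinase gene that glucocorticoids induce within hours, had levels of 36.17 and 42.98 in SmoM2 and of 45.79 and 43.81 in WT, and the nearest samples of the groups were almost level. Dusp1, a phosphatase gene, read 24.72 and 22.69 against 25.96 and 31.22. Angptl4, an inhibitor of lipoprotein lipase, was the one that rose, at 5.32 and 5.57 in SmoM2 and 3.20 and 1.96 in WT, with a log2 difference of 0.87 ± 0.23 (SE, limma). Nfkbia, Txnip and Cebpb had SmoM2 levels above those of WT without passing.

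**Figure D4:**
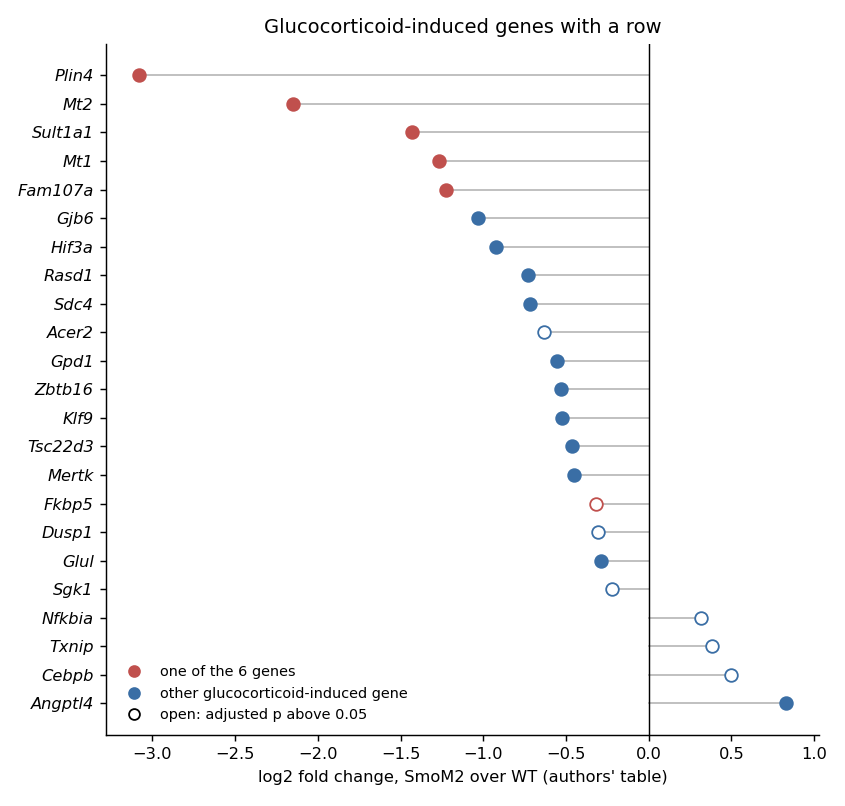
Log2 fold change, SmoM2 over WT, in the authors' deposited table for the 23 glucocorticoid-induced genes with a row, with the 6 described genes in red, the other 17 in blue and open circles for an adjusted p above 0.05. Of the 23, 19 lie below 0, and Plin4, Mt2, Sult1a1, Mt1 and Fam107a are the lowest.

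Zinc handling beyond Mt1 and Mt2 moved in both directions and by less. Of 20 further genes, 9 had a row, 5 lower and 4 higher, and the authors' deposited table gives them a median of -0.21 (log2 fold change). As background for the calls that follow, 16% of all listed genes fell and 21.3% rose. Slc30a4 and Slc39a12, a zinc exporter and an importer, fell, the first from 20.29 and 23.36 in WT to 16.63 and 15.90. Slc39a7 and Slc39a3, both importers into the cytosol, and Slc30a10, a manganese exporter, rose, with Slc39a7 at 121.82 and 121.24 in SmoM2 and 75.43 and 81.85 in WT. Slc30a1, the exporter that MTF-1 induces together with metallothioneins, had levels of 8.55 and 10.05 in SmoM2 and of 10.98 and 11.20 in WT and was not called. Its difference of -0.23 went to -0.13 without SmoM2 replicate 1 (limma). Mtf1 itself had no row. Of 20 genes of the response to metals and oxidants, 7 had a row; Ftl1 and Gpx1 rose and Gsta4 and Sod2 are called lower, although the levels of Sod2 overlapped and averaged higher in SmoM2. The Gpx1 difference of 0.42 went to 0.27 without WT replicate 2 (limma). Of 16 clock genes, several of which follow daily hormone rhythms, Hlf, Clock, Nr1d2 and Bhlhe40 had a row and all 4 fell; without WT replicate 2 the log2 differences (limma) went from -0.62 to -0.29 for Hlf, from -0.36 to -0.18 for Clock and from -0.29 to -0.11 for Nr1d2.

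The genes most like each of the 6 over the 4 samples were found by distance between profiles of log2(level + 1), each centred on its own mean, among the 4008 other genes whose level averaged 5 or more. A distance of 0 is the same pattern and size, and 4 points of 2 groups make many genes alike, so these are descriptions. Sult1a1 and Fam107a were near each other, at a distance of 0.139. The nearest to Sult1a1 was Ugt8a, an enzyme of myelin galactolipid synthesis, at 0.099, followed by Fam107a and then Mog, a myelin surface protein, at 0.170. The nearest to Fam107a was Tmem88b at 0.095, followed by Sult1a1 and then Ugt8a at 0.147. Mt1 had an identifier without a symbol as its nearest, at 0.138, then Ugt8a at 0.145 and Tmem88b at 0.225. Mt2 had no neighbour as close: Hba-a1, an alpha-globin gene, came first at 0.219, then Mal, a myelin proteolipid gene, at 0.384, while Mt1 was at 0.875. Fkbp5, which differed little, lay at 0.010 from Psma2, 0.018 from Ahcyl1 and 0.034 from Hsd17b12. The Plin4 profile spans only 0.273 on this scale and its neighbours are not described.

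Markers of several cell types moved in the same samples, and their part in the lower levels of the 6 genes was not tested. In tissue, fewer cells of a type and less RNA per cell cannot be told apart. As background for the marker counts here and in the next paragraph, 16% of all listed genes fell and 21.3% rose. Mature oligodendrocyte markers had a row for 15 of 15, all 15 fell, with a median log2 fold change of -1.11 by the authors' deposited table. The levels of 1 of them, Aspa, overlapped, and its difference of -0.34 went to 0.14 without SmoM2 replicate 1 (limma). Without SmoM2 replicate 1 the difference of Trf also went from -0.498 to -0.312 and that of Myrf from -0.473 to -0.315 (limma). The summed level of the 15 was 3121 and 3528 in SmoM2 and 6496 and 6114 in WT. Mbp alone made up 1955.7 and 2248.6 of these sums in SmoM2 and 4001 and 3526.3 in WT. Red cell genes had 5 of 7, all 5 fell, with sums of 65.6 and 120.4 against 661.7 and 449.8. Choroid plexus genes had 8 of 10, all lower and 6 called, with sums of 77.8 and 631.7 against 1224 and 1190. Ttr alone made up 71.24 and 618.04 of the choroid plexus sums in SmoM2 and 1202.7 and 1162.5 in WT. Slc4a5, one of the 6 called, had low levels that overlapped, at 0.12 and 0.83 in SmoM2 and 0.41 and 1.21 in WT. Astrocyte markers, of the cells that make most Mt1 and Mt2, had 5 of 16 with a row. Slc1a2 fell, Gfap and Aqp4 rose, and S100b and Aldoc were lower without passing, with sums of 1276 and 1191 in SmoM2 and 1402 and 1282 in WT. Aldoc alone made up 617.81 and 622.63 of the SmoM2 sums and 773.39 and 642.08 of the WT sums. Without SmoM2 replicate 1 the Aqp4 difference went from 0.50 to 0.32, without SmoM2 replicate 2 that of Slc1a2 from -0.33 to -0.17 and without WT replicate 2 that of Gfap from 0.53 to 0.32 (limma).

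Endothelial markers, of a cell type that also expresses Sult1a1, had 6 of 10 with a row; Cldn5, Cdh5 and Kdr rose and Ly6c1 and Slco1a4 fell, and the sums were 270.5 and 191.2 in SmoM2 and 260.7 and 219.8 in WT. Without SmoM2 replicate 1 the differences (limma) went from 0.64 to 0.41 for Cldn5, from 0.63 to 0.39 for Cdh5 and from 0.44 to 0.17 for Kdr, and without SmoM2 replicate 2 that of Ly6c1 from -0.90 to -0.59. Meningeal fibroblast markers had 11 of 12, and all 11 rose, Col3a1 with levels that overlapped, with sums of 1860 and 1924 against 1039 and 403. Ptgds alone made up 1641.1 and 1727.5 of these sums in SmoM2 and 933.18 and 312.88 in WT. Its difference of 1.64 went to 0.85 without WT replicate 2, and without SmoM2 replicate 1 those of Col3a1 and Foxc1 went from 0.70 to 0.22 and from 0.48 to 0.20 (limma). With either replicate 2 left out, that of Dcn, 0.65 over all samples, was 0.30 (SmoM2) or 0.41 (WT) by limma. Pericyte and smooth muscle markers had 5 of 9, all higher and 3 called, with sums of 135.9 and 112.9 against 72.7 and 55.9. The levels of Pdgfrb and Myh11, which were not called, overlapped. Vtn alone made up 102.99 and 86.42 of these sums in SmoM2 and 55.86 and 36.27 in WT. The Notch3 difference of 0.77 went to 0.34 without WT replicate 1 (limma). Microglial markers had 6 of 10, with 2 called higher and 1 lower. The latter, P2ry12, had levels that overlapped, at 64.14 and 51.27 in SmoM2 and 59.00 and 74.29 in WT, and its difference of -0.20 shrank to -0.05 when SmoM2 replicate 2 was left out and to -0.04 when WT replicate 2 was (limma). Neuronal markers had 4 of 10, with 1 called higher and 2 lower. Of 8 ciliated ependymal genes, Dynlrb2 had a row and was not called, and of 13 immediate early genes 5 had a row, 2 called higher and 2 lower, of which Npas4 had levels that overlapped. The Npas4 difference of -0.67 became -0.33 when SmoM2 replicate 2 was left out and -0.29 when WT replicate 2 was (limma). No marker with a row was at 0 in any sample. Neuronal and myelin genes at high level in all 4 samples fit the labelled tissue, with Snap25 from 1277 to 1794 and Mbp from 1956 to 4001. Ttr, which marks the choroid plexus beside it, differed between the SmoM2 samples more than any other gene named here, at 71.24 and 618.04, and stood at 1202.7 and 1162.5 in WT.

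**Figure D5:**
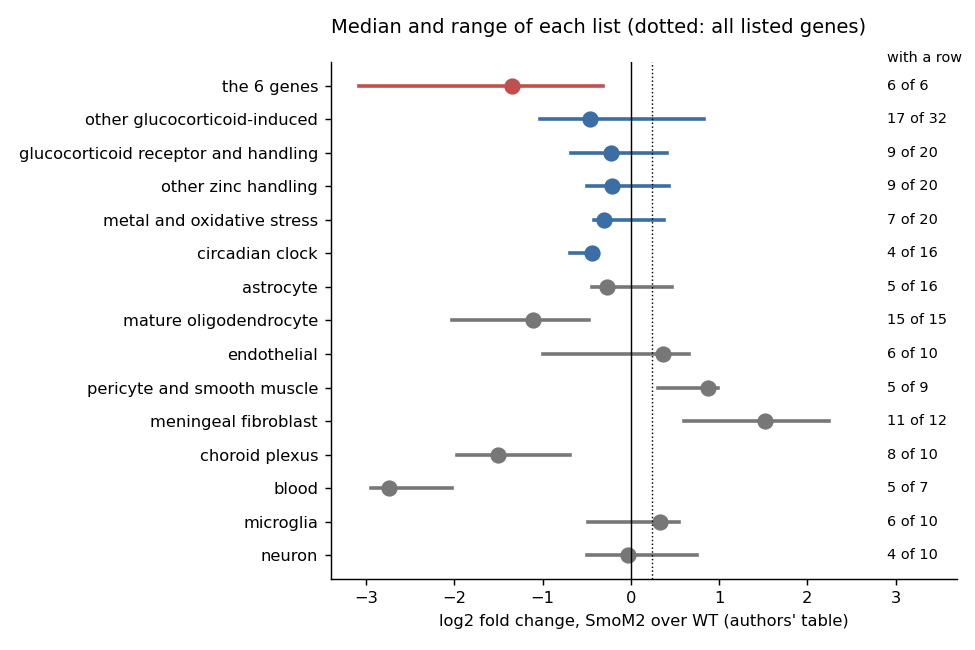
Median (circle) and range (line) of the log2 fold change, SmoM2 over WT, in the authors' deposited table for each list, with the number of its genes that have a row at the right and the median of all listed genes dotted. The 6 genes have a median of -1.35, near that of mature oligodendrocyte markers at -1.11 and choroid plexus genes at -1.50, while the other glucocorticoid-induced genes lie at -0.462 and astrocyte markers at -0.265.

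Smo itself rose, with levels of 10.73 and 10.96 in SmoM2 and of 7.12 and 5.75 in WT. Summed over all 5282 genes, a sample's levels came to 469062 at the lowest and 512833 at the highest. These are levels and not read counts, so the depth behind each value is unknown.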

How the data were processed

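Libraries came from 1 ug of total RNA each by Illumina's TruSeq kit, per the labels' protocols. RSEM, DESeq2 and GRCm38.p6 are named without version or role, per the submitters' processing notes. The deposited table gives, per gene, a level in each of the 4 samples, the authors' fold change as a ratio and on the log2 scale, and their p-value before and after adjustment; 0.049997 is the highest unadjusted one. The adjusted p equals p times 57010 over its rank for 5266 of 5282 genes within 1e-06. Columns were tied to samples by the pairing in the series text.

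From the levels, group means and SDs were computed, and limma 3.58.1 (R 4.3.3), with a mean-variance trend, was fitted to log2(level + 1) for 4845 genes whose level averaged 1 or more. These differences understate changes of low genes. Their SEs borrow variance from the fitted genes, all listed for an unadjusted p under 0.05, so the SEs may be too small. The code of the fit was tried on simulated levels with constant noise and most genes unchanged. Those settings differ from the deposited table, so the trial says nothing of precision here. Positions and transcripts are from GENCODE M21 and promoter windows from RefSeq, both GRCm38; 5226 of 5282 identifiers matched. The 6 genes and all gene lists were chosen with earlier results of these data known. Besides the 6, genes were named as up to 4 called members of a list with the largest fold change and no overlap, all metallothioneins, perilipins, Nr3c1 and Smo, and the 3 nearest in pattern; Tsc22d3, Klf9, Zbtb16, Gjb6, Sgk1, Dusp1, Slc30a1, Hsp90aa1, Sod2 and other list members were named after their values were seen, and some list members are not reported here. Alternatives were other pseudocounts, filters and scalings, the authors' fold change, a replicate block, and leaving out each sample.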

Additional observations from a re-analysis of the deposited data

How the results depend on the processing

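The lower level in SmoM2 held for Mt1, Mt2, Sult1a1, Fam107a and Fkbp5 under each alternative run, but most of these could not reverse it. As the groups did not overlap, other pseudocounts, filters, the block and leaving out a library could change only the size. The direction could differ only with the other scalings and the authors' fold change. The median log2 difference of these 5 was -1.20 and moved to -1.34 with quantile normalization, and leaving out 1 library gave -1.38 to -1.08. The median over all genes went from 0.25 to 0.13 with quantile normalization. The other scalings were set on the listed genes alone, so they cannot check the scaling of whole libraries. For the 17 other glucocorticoid-induced genes with a row, the median of -0.26 became -0.43 with quantile normalization and -0.46 with the authors' fold changes. It ran from -0.36 to -0.26 with a library left out, with 12 or 13 of 17 lower. The number of genes called depends on the method: 1968 in the authors' table and 6 by limma on the levels, with none of the 6 described genes among the limma calls. The limma adjustment, here and with the block below, counted 57010 tests, as the authors' adjusted p implies, although only 4845 genes were fitted. An adjustment over the fitted genes alone is not given. By limma 2687 genes had an unadjusted p of at most 0.05. With the replicate number as a block, added after the data were seen for this count, limma called 20. Each group has both replicate numbers, so the block cannot change a log2 difference and is no check of its size. The median is thus again -1.20, and the other list median -0.26 with 13 lower. The labels give no shared origin for equal numbers, and the differences between replicates 1 and 2 correlated across genes at -0.0934 between the groups. Plin4 is too low for the filter, and without it its difference was -0.20. Depth is unknown, so precision at low levels cannot be given.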
